A study of Mus musculus with 4 samples.

Results

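The heat shock proteins and the DNAJ (J-domain) co-chaperones were examined in bulk RNA sequencing of mouse CD4 T cells that carried either an empty retrovirus or a retrovirus encoding the transcription factor Tox. Members were chosen by gene symbol: the Hspa, Hspb, Hspd, Hspe, Hsph and Hsp90 genes and the Dnaja, Dnajb and Dnajc genes, leaving out *Hspbap1*. Of 24369 genes listed, 73 had such a symbol, and 65 of these (41 *Dnaj* and 24 *Hsp* genes) reached 10 or more expected counts in at least 2 libraries and form the set described here. All 65 were also among the 14143 genes tested. Naïve CD4 T cells came from spleens of wild type C57BL/6 mice and were activated without polarizing cytokines on plate-bound anti-CD3 with soluble anti-CD28 and, per the study's methods, recombinant human IL-2. On day 2 they were transduced with MSCV-IRES-eGFP (EV RV, 2 libraries) or with MSCV-Tox-IRES-eGFP (Tox RV, 2 libraries). On day 5 the cells were restimulated for 5 h, and GFP+ CD4 T cells were sorted. For the restimulation the study's methods give biotinylated anti-CD3 with streptavidin, while its results section names anti-CD3 and anti-CD28. Both groups therefore share activation, retrovirus and GFP, and in the Tox RV cells the viral vector added Tox to any made from their own gene. The ages of the mice are not given in the sources used here, and each group represents 2 mice.

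Heat shock proteins are molecular chaperones that bind unfolded or newly made proteins, and many are induced when heat or other stress activates the transcription factor HSF1. HSP70 proteins hold and release their clients in an ATP-driven cycle, which J-domain proteins of the DNAJA, DNAJB and DNAJC classes start by delivering clients and stimulating ATP hydrolysis. Separate sets work in the cytosol, the endoplasmic reticulum (ER) lumen and the mitochondrial matrix, and activated T cells raise several of them as they grow and begin to secrete cytokines.

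The 4 libraries held between 46989997 and 74548723 expected counts. *Tox* was at 11.7 and 5.73 CPM (counts relative to library size, scaled by the trimmed mean of M-values) in EV RV and at 121 and 99.9 in Tox RV, in the direction of the labels. The 45S pre-ribosomal RNA *Rn45s* took 24.7% of the counts in EV RV 1, 11.97% in EV RV 2, 10.3% in Tox RV 1 and 7.14% in Tox RV 2. EV RV 1, the library with the most *Rn45s*, was also the lowest library for many chaperones, and whether the pre-ribosomal RNA has a part in those values was not tested. All 7 CD4 T cell markers were tested, and their summed level was 2709 and 1877 CPM in EV RV, against 2514 and 2214 in Tox RV. Markers of CD8 T or NK cells (4 of 5 tested) summed to 55.5 and 16.3 CPM in EV RV, against 32.2 and 11.1 in Tox RV. *Ncr1* was at 0 counts in every library. The sum was higher in replicate 1 of both groups, as were *Klrk1*, *Klrd1* and *Cd8b1* relative to library size. By that measure *Cd8a* was higher in replicate 2 of both groups. Its counts were 65 for EV RV 1, 163 for EV RV 2, 99 for Tox RV 1 and 91 for Tox RV 2. B cell markers (2 of 5 tested) and myeloid markers (4 of 6 tested) each summed to between 1.1 and 2.1 CPM in every library, and *Ms4a1* and *Pax5* were at 0 counts.

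With all 4 libraries, the chaperones as a group sat slightly higher in Tox RV than in EV RV, with no single member passing the test after correction. Without EV RV 1 the median log2 fold change fell to 0.02, with 36 of 65 members above 0. The log2 fold change of Tox RV over EV RV was above 0 for 44 of the 65 members, against 50.4% of all genes tested, and its median was 0.20, against 0.0036 over all genes tested. The range ran from −0.998 for *Hspa1a* to 0.51 for *Dnajc12*. By edgeR's quasi-likelihood test 0 members had an adjusted p-value below 0.05 (smallest 0.897), and no gene did among all tested (0%, smallest 0.490 for *Tox*). DESeq2 called 0 members too (smallest adjusted p = 0.295, for *Hspa1a*), against 0.156% of all genes. At an unadjusted p below 0.05, 1 member passed with either tool, *Hspa1a*. Of all genes 3.62% passed in the quasi-likelihood test, 2.55% with a lower and 1.07% with a higher level in Tox RV. DESeq2 gave 596 of the 14143 genes an unadjusted p below 0.05. The groups did not overlap, with Tox RV the higher, for 19 members (29.2%), against 18.6% of all genes, and with Tox RV the lower for 7 (10.8%), against 17.4%. Members share libraries and cultures and are not replicates of one another, so these shares are descriptions. In bulk RNA, fewer cells making a transcript and less of it per cell cannot be told apart. With 2 libraries a group, the smallest two-sided p that an exact permutation test of 1 gene allows is 0.333.

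**Figure D1:**
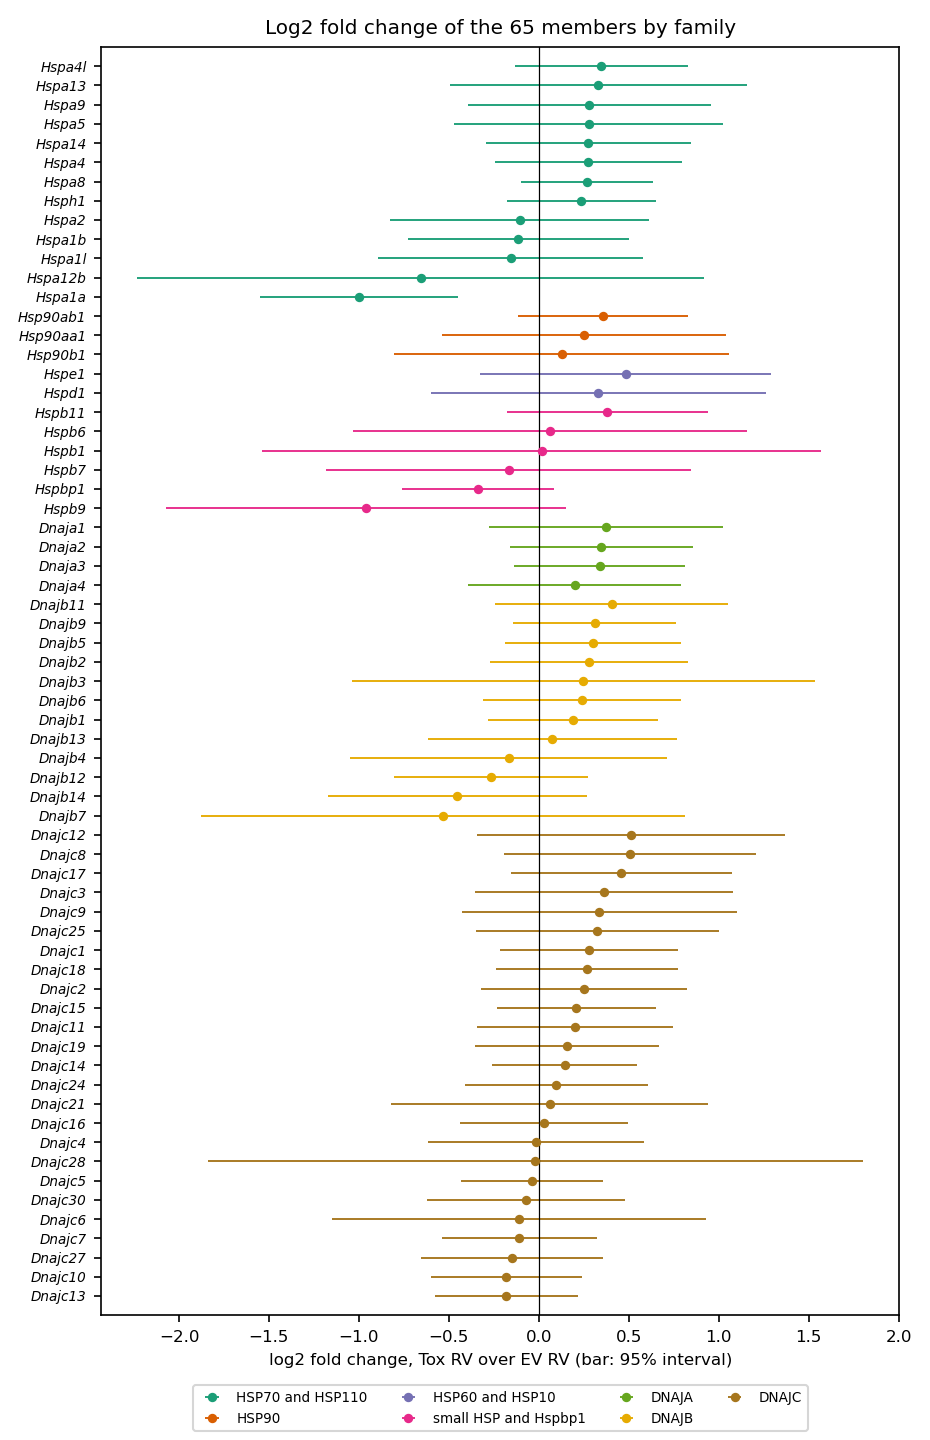
Log2 fold change of Tox RV over EV RV for the 65 members, grouped by family, with points for the quasi-likelihood estimate and bars for its 95% interval. The intervals of 64 members span 0, that of *Hspa1a* runs from −1.55 to −0.45, and the widest belong to members with few counts such as *Dnajc28*.

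The intervals set how large a change could have gone unseen. For 39 of 65 members (60.0%) the 95% interval lay wholly inside a 2-fold change in either direction, against 61.2% of all genes. No fold change in the set exceeded 2-fold. The median difference between the 2 EV RV libraries (EV RV 2 minus EV RV 1, log2) was 0.27 over the members and −0.005 over all genes, while the median of Tox RV 2 minus Tox RV 1 was 0.07 over the members. In 46 of 65 members (70.8%) the gap between the EV RV libraries exceeded the fold change between the groups, as it did in 71.1% of all genes. EV RV 1 was the lowest of the 4 libraries in 37 of 65 members (56.9%), against 37.0% of all genes. When EV RV 1 was left out, the median log2 fold change of the members was 0.02 and 36 of 65 were above 0. When EV RV 2 was left out, the median was 0.34 and edgeR's quasi-likelihood test gave 6 members an adjusted p below 0.05, among 600 genes in all, with the lone EV RV library assumed to vary as the Tox RV pair did. Those 6 were *Hspa5*, *Hspa9*, *Hspd1*, *Hspe1*, *Dnajb11* and *Dnajc8*, with log2 fold changes from 0.72 to 1.06 in that comparison with EV RV 1. The size of the group's shift thus depended on EV RV 1.

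**Figure D2:**
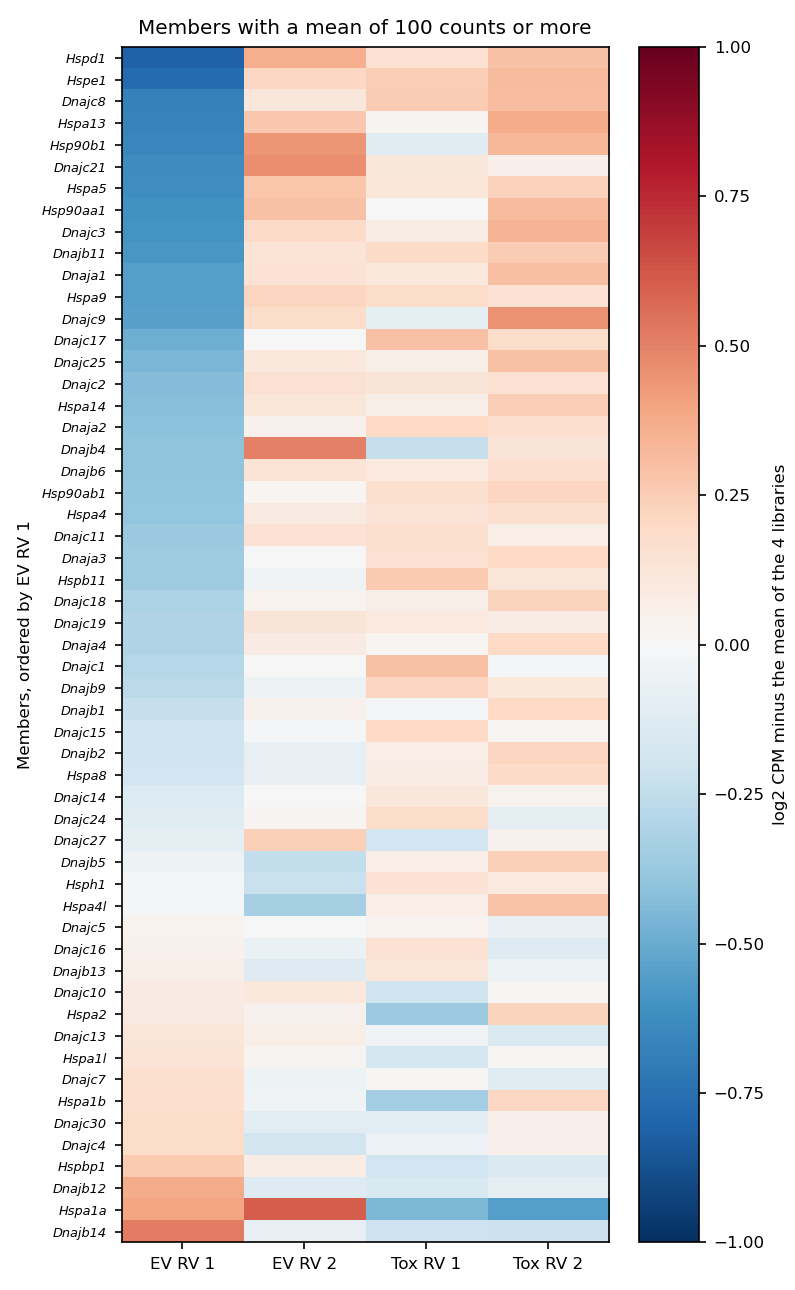
Log2 CPM of each member with a mean of 100 counts or more, minus its mean over the 4 libraries, 1 row per member ordered by EV RV 1 and 1 column per library. EV RV 1 is the lowest library for the rows at the top, which include *Hspd1* and *Hsp90b1*, and *Hspa1a* is lower in both Tox RV libraries.

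Levels between genes were compared in TPM, transcript abundance scaled to transcript length and to the library's total. The 65 members summed to 9002 and 11280 TPM in EV RV and to 11212 and 12101 in Tox RV, between 0.900% and 1.21% of all TPM. EV RV 1 was lowest, and EV RV 2 lay between the Tox RV libraries. One gene dominated: *Hspa8*, the constitutive cytosolic HSP70 (HSC70), held 48.4% and 39.5% of the members' TPM in EV RV, against 42.9% and 43.3% in Tox RV. It was followed by *Hsp90ab1*, the constitutive cytosolic HSP90, with 1331 and 1686 TPM in EV RV, against 1799 and 1866 in Tox RV. Next came *Hspa5* (BiP), the HSP70 of the ER lumen, with 628 and 1114 TPM in EV RV, against 967 and 1042 in Tox RV. The 12 members with the highest mean TPM made up between 87.3% and 88.6% of the total. All 12 had a log2 fold change above 0 (median 0.28), EV RV 1 was the lowest library in all 12, and 6 of the 12 were above 0 when EV RV 1 was left out (median 0.02).

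**Figure D3:**
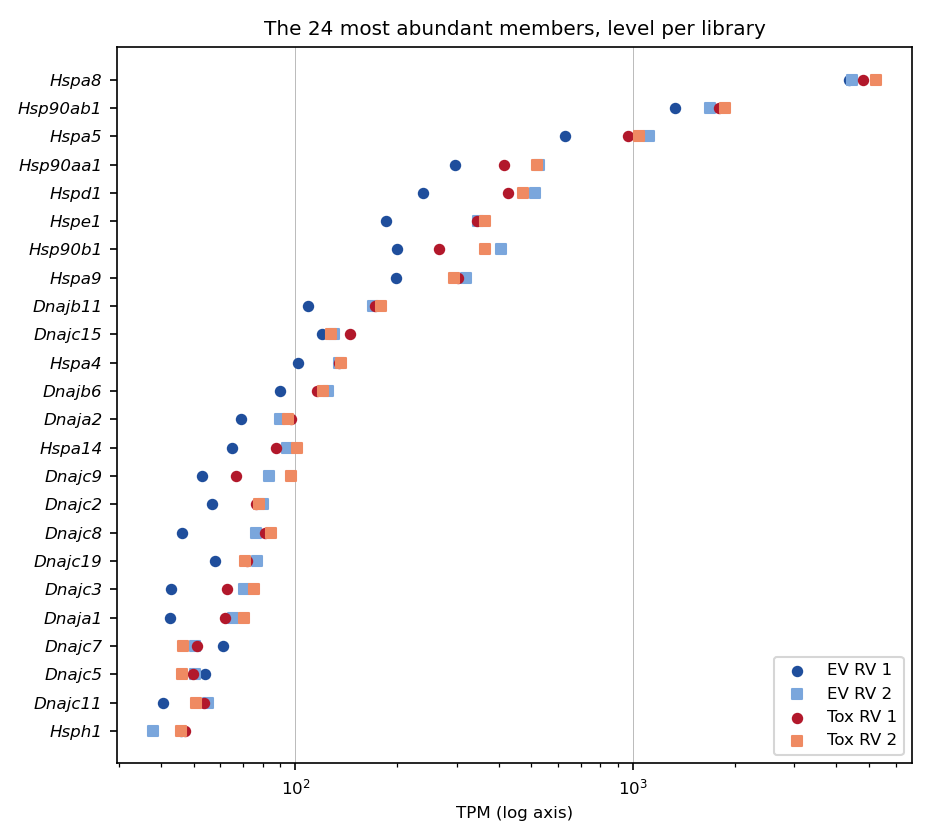
TPM (log axis) of the 24 most abundant members in each of the 4 libraries, with circles for replicate 1 and squares for replicate 2. *Hspa8* lies between 4359 and 5234 TPM, above every other member, and for most genes the EV RV 1 point is the leftmost.

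In the cytosol, the abundant chaperones were between 1.18-fold and 1.28-fold higher in Tox RV by the fitted values, and none passed the test. *Hspa8* (chr9:40800984-40810087, mm10) was at 5100 and 5490 CPM in EV RV and at 6114 and 6650 in Tox RV. Its groups did not overlap, and the log2 fold change was 0.27 (SE 0.15, adjusted p = 0.897 by edgeR's quasi-likelihood test) with 0.21 without EV RV 1. *Hsp90ab1* (chr17:45567775-45573271) was at 1878 and 2504 CPM in EV RV and at 2759 and 2860 in Tox RV. The groups again did not overlap (log2 fold change 0.36, SE 0.19), and the value without EV RV 1 was 0.16. *Hsp90aa1*, the stress-inducible cytosolic HSP90, was at 479 and 896 CPM in EV RV and at 730 and 909 in Tox RV. Here EV RV 2 lay inside the Tox RV range, and the log2 fold change of 0.25 (SE 0.32) became −0.14 without EV RV 1. *Hspa4*, an HSP110-type nucleotide exchange factor that resets HSP70, was at 275 and 383 CPM in EV RV and at 395 and 401 in Tox RV (log2 fold change 0.27, and 0.05 without EV RV 1). *Hsph1* (HSP105), the heat-inducible exchange factor of the same type, was at 91.2 and 79.5 CPM in EV RV and at 102 and 99.0 in Tox RV. Unlike the genes above, *Hsph1* was not lowest in EV RV 1, and its log2 fold change of 0.24 was 0.33 without that library.

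The only member whose unadjusted p fell below 0.05 was *Hspa1a*, 1 of the 2 classical stress-inducible HSP70 genes. It was at 8.06 and 9.33 CPM in EV RV and at 4.50 and 4.20 in Tox RV, from 340, 710, 285 and 218 expected counts in EV RV 1, EV RV 2, Tox RV 1 and Tox RV 2. The groups did not overlap, and the log2 fold change was −0.998 (SE 0.22, unadjusted p = 0.0046, adjusted p = 0.897 by edgeR's quasi-likelihood test). It stayed between −1.10 and −0.88 when any 1 library was left out. Its neighbour *Hspa1b*, which encodes nearly the same protein, was at 13.8 and 11.98 CPM in EV RV and at 9.69 and 14.1 in Tox RV. The groups of *Hspa1b* overlapped, with a log2 fold change of −0.11 (SE 0.25). The 2 transcripts are 99.2% identical over 2201 aligned bases, so the counting had to divide shared reads between them and the value of either alone is uncertain. Summed as 1 gene, they were at 21.9 and 21.3 CPM in EV RV and at 14.2 and 18.3 in Tox RV, with a log2 fold change of −0.41 (SE 0.20, unadjusted p = 0.0907, adjusted p = 0.897 in the same test). *Hspa1a* took 36.8% and 43.8% of the summed CPM in EV RV, against 31.7% and 22.9% in Tox RV.

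**Figure D4:**
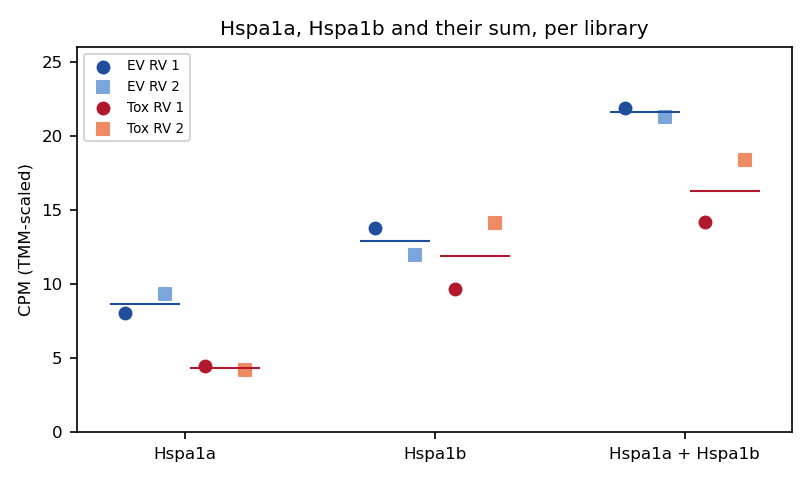
CPM of *Hspa1a*, *Hspa1b* and their sum in each library, with horizontal lines at the mean of each group of 2. The Tox RV points of *Hspa1a* (4.50 and 4.20) lie below its EV RV points (8.06 and 9.33), while those of *Hspa1b* overlap.

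The likeness of the pair extends to the promoter. The 250 bases before the start site in RefSeq (GRCm38.p6, minus strand) are shown because they differ at 3 bases, with 247 identical (98.8%), and capitals mark the CCAAT box, read here on the opposite strand. *Hspa1a* lies at chr17:34969190-34972156 and *Hspa1b* at chr17:34956436-34959238, and the printed stretches are chr17:34972157-34972406 and chr17:34959239-34959488.
Hspa1a: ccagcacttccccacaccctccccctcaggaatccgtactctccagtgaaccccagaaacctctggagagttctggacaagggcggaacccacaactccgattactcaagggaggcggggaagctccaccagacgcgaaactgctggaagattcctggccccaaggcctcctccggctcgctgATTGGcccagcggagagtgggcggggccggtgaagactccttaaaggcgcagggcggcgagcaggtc
Hspa1b: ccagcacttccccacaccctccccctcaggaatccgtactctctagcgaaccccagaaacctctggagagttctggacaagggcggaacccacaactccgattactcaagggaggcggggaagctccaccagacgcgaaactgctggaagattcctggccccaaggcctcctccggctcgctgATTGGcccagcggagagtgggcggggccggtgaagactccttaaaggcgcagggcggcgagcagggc

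The chaperones of the ER lumen, which fold secreted and membrane proteins, had a median log2 fold change of 0.30 over 8 members, 7 of them above 0, and a median of −0.03 without EV RV 1. EV RV 1 was the lowest library for 7 of the 8, and the median difference between the EV RV libraries was 0.75 (log2). *Hspa5* (chr2:34771970-34777547) was at 905 and 1683 CPM in EV RV and at 1509 and 1627 in Tox RV. EV RV 2 was the highest of the 4 libraries, and the log2 fold change of 0.28 (SE 0.30) was −0.11 without EV RV 1. *Hsp90b1* (GRP94), the HSP90 of the ER, was at 312 and 666 CPM in EV RV and at 451 and 616 in Tox RV (log2 fold change 0.13, SE 0.38, and −0.33 without EV RV 1). *Dnajb11* (ERdj3), a J-domain partner of BiP, was at 119 and 195 CPM in EV RV and at 203.5 and 212 in Tox RV. Its groups did not overlap (log2 fold change 0.40, SE 0.26, and 0.08 without EV RV 1). *Dnajc3* (p58IPK), another BiP partner, was at 129 and 223 CPM in EV RV and at 205 and 246 in Tox RV (log2 fold change 0.36, and 0.01 without EV RV 1). *Hspa13*, an HSP70-like protein of microsomes, was at 19.8 and 38.0 CPM in EV RV and at 31.99 and 40.8 in Tox RV (log2 fold change 0.33, and −0.07 without EV RV 1). For both of these genes the groups overlapped. *Dnajb9* (ERdj4), which restrains the ER stress sensor IRE1, was at 15.3 and 17.8 CPM in EV RV and at 21.3 and 19.7 in Tox RV. The groups did not overlap for *Dnajb9* (log2 fold change 0.31, SE 0.18, and 0.20 without EV RV 1), whose transcript is 93.3% identical over 697 bases to *Gm6568*, which stayed under 0.4 CPM in every library. *Dnajc1* (ERdj1) was at 75.4 and 91.8 CPM in EV RV and at 112 and 90.6 in Tox RV. *Dnajc10* (ERdj5), a J-domain protein that reduces disulfide bonds, was at 83.3 and 84.6 CPM in EV RV and at 68.8 and 79.5 in Tox RV. It was the only one of the 8 with a log2 fold change below 0 (−0.18, SE 0.17), and its groups did not overlap.

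The promoters of these genes were searched for a known sequence element. The ER stress element, to which ATF6 binds together with NF-Y, was searched on both strands as a CCAAT box, 9 bases of any kind and then CCACG, in 300 bases (250 before the RefSeq start, 50 after) of the 54 members found in the promoter table. It was in the promoters of *Hspa5*, *Hsp90b1* and *Dnajc3*, 3 of 54 members (5.56%) and 3 of 7 ER lumen members in the table, against 0.137% of 27025 genes and 0.119% of 32851 promoters. The CCAAT box alone was in 24 of 54 members (44.4%), against 41.1% of genes. The stretches below show the element in capitals (GRCm38.p6), 5′ to 3′ on the strand of the gene. *Hspa5* is chr2:34772020-34772048 on the plus strand, with the element at −65 to −47 from the RefSeq start, where an annotated exon of the gene already lies. *Hsp90b1* is chr10:86705510-86705602 on the minus strand, where the element at −107 to −89 reads in reverse (another match lies at −212 to −194). *Dnajc3* is chr14:118937776-118937895 on the plus strand, with the element at −105 to −87.
Hspa5: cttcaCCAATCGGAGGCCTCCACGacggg
Hsp90b1: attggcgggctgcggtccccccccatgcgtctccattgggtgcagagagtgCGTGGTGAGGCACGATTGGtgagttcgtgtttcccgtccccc
Dnajc3: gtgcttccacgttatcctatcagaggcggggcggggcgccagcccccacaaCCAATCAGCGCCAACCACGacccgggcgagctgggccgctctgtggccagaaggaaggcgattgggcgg

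In mitochondria, where HSP70, HSP60 and HSP10 fold imported proteins, 7 of 10 members had a log2 fold change above 0, with a median of 0.21, and a median of 0.07 without EV RV 1. *Hspd1* (HSP60), the folding chamber, was at 314 and 707 CPM in EV RV and at 611 and 673 in Tox RV. EV RV 2 was the highest library, and the log2 fold change of 0.33 (SE 0.38) was −0.15 without EV RV 1. *Hspe1* (HSP10), its lid, was at 70.9 and 139.8 CPM in EV RV and at 144 and 151 in Tox RV. The groups did not overlap (log2 fold change 0.48, SE 0.33), with 0.07 without EV RV 1. *Hspa9* (mortalin), the matrix HSP70, was at 346 and 589 CPM in EV RV and at 575 and 561 in Tox RV (log2 fold change 0.28, and −0.06 without EV RV 1). *Dnaja3* (TID1), its J-domain partner, was at 48.9 and 62.9 CPM in EV RV and at 69.5 and 71.8 in Tox RV, with no overlap and a log2 fold change of 0.34 (SE 0.19, and 0.16 without EV RV 1). *Dnajc15* and *Dnajc19*, which act at the inner-membrane import motor, differed in pattern. *Dnajc15* was at 37.3 and 42.7 CPM in EV RV and at 49.2 and 43.4 in Tox RV, without overlap, and *Dnajc19* was at 22.8 and 30.8 in EV RV and at 30.2 and 29.7 in Tox RV, with overlap. *Dnajc11*, a protein of the cristae machinery, was at 67.7 and 97.2 CPM in EV RV and at 97.8 and 92.0 in Tox RV. The 3 with a log2 fold change below 0 were *Dnajc4*, *Dnajc30* and *Dnajc28*, at −0.01, −0.07 and −0.02, each turning positive without EV RV 1. They were also the weakest of the 10. *Dnajc4* was at 6.71 and 5.20 CPM in EV RV and at 5.66 and 6.11 in Tox RV. *Dnajc30*, a partner of the ATP synthase, was at 9.27 and 7.53 CPM in EV RV and at 7.52 and 8.44 in Tox RV. *Dnajc28* was at 0.47 and 0.14 CPM in EV RV and at 0.35 and 0.23 in Tox RV. The groups of all 3 overlapped.

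*Hspd1* (chr1:55077835-55088243, minus strand) and *Hspe1* (chr1:55088132-55091307, plus strand) are arranged head to head, and their annotated exons overlap by 112 bases on opposite strands. Whether the counting used strand is not given in the sources used here, so reads in that overlap cannot be told apart. The same holds for other overlaps on opposite strands, such as *Hsp90b1* with *1810014B01Rik* (415 exonic bases), *Dnaja1* with *Smu1* (608) and *Dnajc1* with *Mllt10* (749). The heat shock element, the site of HSF1, was searched on both strands as GAA, TTC and GAA, each 2 bases apart, or as TTC, GAA and TTC with the same gaps, which is the reverse complement of the first. It was found in *Hspd1*, *Hspe1*, *Hsph1* and *Dnajb6*, 4 of 54 members (7.41%), against 0.662% of genes and 0.603% of promoters. *Hspd1* and *Hspe1* share the same pair of overlapping matches, at chr1:55088059-55088076. In *Hsph1* the match follows the start, at 36 to 48 bases from the upstream start in the table. The element is shown in capitals for the shared HSP60 and HSP10 promoter, on the *Hspe1* strand (chr1:55088054-55088081), and for *Dnajb6* (chr5:29735847-29735869, plus strand, at −46 to −34 from one RefSeq start). Both stretches lie inside annotated exons, of *Hspd1* in one case and of *Dnajb6* and the opposite-strand gene *Gm5129* in the other.
Hspe1: gtccgTTCTAGAACCTTCCGGAAggccc
Dnajb6: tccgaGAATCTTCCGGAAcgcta
None of the 4 genes with the element passed the test, and the log2 fold change was 0.33 for *Hspd1*, 0.48 for *Hspe1*, 0.24 for *Hsph1* and 0.24 for *Dnajb6*. Without EV RV 1 these values were −0.15, 0.07, 0.33 and −0.008, in the same order. *Hspa1a* and *Hspa1b* had no match to these letters in the same window. The search took only exact matches to the full pattern, so a missing match does not show that a gene lacks an HSF1 site.

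Among the J-domain proteins, all 4 DNAJA members had a log2 fold change above 0 (median 0.34, and 0.10 without EV RV 1). *Dnaja1* (HDJ2), the inducible cytosolic partner of HSC70, was at 138 and 223 CPM in EV RV and at 218 and 250 in Tox RV, with overlap (log2 fold change 0.37, and 0.06 without EV RV 1). *Dnaja2*, a second cytosolic partner of HSC70, was at 111 and 152 CPM in EV RV and at 170 and 166 in Tox RV. The groups of *Dnaja2* did not overlap (log2 fold change 0.35, SE 0.21, and 0.13 without EV RV 1). Of 12 DNAJB members, 8 were above 0 (median 0.22, and 0.12 without EV RV 1). *Dnajb6*, which keeps aggregation-prone proteins soluble, was at 89.0 and 129 CPM in EV RV and at 126 and 132 in Tox RV. *Dnajb1* (HSP40), the heat-inducible J-domain protein of the cytosol, was at 44.3 and 53.6 CPM in EV RV and at 51.8 and 60.0 in Tox RV (log2 fold change 0.19, SE 0.19, and 0.05 without EV RV 1). *Dnajb12* and *Dnajb14*, related J-domain proteins anchored in the ER membrane, were on the lower side. *Dnajb12* was at 42.0 and 29.8 CPM in EV RV and at 29.2 and 30.5 in Tox RV, and its log2 fold change of −0.27 was −0.004 without EV RV 1. *Dnajb14* was at 6.07 and 4.02 CPM in EV RV and at 3.68 and 3.66 in Tox RV (log2 fold change −0.45, SE 0.29, and −0.14 without EV RV 1). For both, EV RV 1 was the highest library.

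Of 25 DNAJC members, 16 had a log2 fold change above 0 (median 0.14, and 0.07 without EV RV 1). The largest in the set with a mean of 100 counts or more belonged to *Dnajc8*, a J-domain protein associated with the splicing machinery (chr4:132535550-132553742). It was at 34.9 and 60.6 CPM in EV RV and at 66.6 and 69.2 in Tox RV. The groups did not overlap, and the log2 fold change was 0.51 (SE 0.28, adjusted p = 0.897 by edgeR's quasi-likelihood test) with 0.16 without EV RV 1. *Dnajc17*, another J-domain protein linked to splicing, was at 5.52 and 7.78 CPM in EV RV and at 9.50 and 8.81 in Tox RV, without overlap (log2 fold change 0.46, SE 0.25, and 0.23 without EV RV 1). *Dnajc13* (RME-8), which acts in endosomal sorting, was at 119 and 113 CPM in EV RV and at 106 and 98.4 in Tox RV. It had a log2 fold change of −0.18 (SE 0.16), and its groups did not overlap. *Dnajc12* had the highest fold change of all members (0.51, SE 0.35) at 1.20 to 2.24 CPM, and its groups did not overlap.

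The small heat shock proteins, holdases that bind clients without ATP, were weak in these cells. *Hspb1* (HSP25), the stress-inducible one, was at 0.996 and 1.45 CPM in EV RV and at 0.55 and 1.95 in Tox RV. The 2 Tox RV libraries enclosed both EV RV libraries. *Hspb11*, an intraflagellar transport subunit (IFT25) that carries the symbol, was higher, at 5.90 and 7.37 CPM in EV RV and at 9.07 and 8.23 in Tox RV, without overlap (log2 fold change 0.38, SE 0.23, and 0.23 without EV RV 1). *Hspbp1*, a nucleotide exchange factor that releases ADP from HSP70 and was included by its symbol, was on the lower side. It was at 41.6 and 36.7 CPM in EV RV and at 30.5 and 31.5 in Tox RV, without overlap, with a log2 fold change of −0.34 (SE 0.17, adjusted p = 0.897 by edgeR's quasi-likelihood test) and −0.25 without EV RV 1. *Hspb9*, a testis-enriched small heat shock protein, was at 1.14 and 0.959 CPM in EV RV and at 0.680 and 0.385 in Tox RV. Its groups did not overlap, and the log2 fold change of −0.96 (SE 0.45, adjusted p = 0.897 by edgeR's quasi-likelihood test) was −0.84 without EV RV 1. *Hspb6* and *Hspb7* lay between 0.559 and 1.80 CPM, and the groups of both overlapped. Over these 6 members the median was −0.08, with 3 above and 3 below 0, and it was −0.26 without EV RV 1 and 0.14 without EV RV 2.

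A list of 10 genes associated with the heat shock response (stress-inducible in the plot of medians) held *Hspa1a*, *Hspa1b*, *Hsph1*, *Hsp90aa1*, *Hspb1*, *Hspd1*, *Hspe1*, *Dnaja1*, *Dnajb1* and *Hspa8*, the last of which is largely constitutive. Of these 8 had a log2 fold change above 0 and 2 below, *Hspa1a* and *Hspa1b*, with a median of 0.24 and 0.02 without EV RV 1. Leaving *Hspa8* out of the list, a choice made after seeing the data, gave 7 of 9 above 0, a median of 0.24 and −0.02 without EV RV 1. In the HSP70 and HSP110 family, 8 of 13 were above 0 (median 0.27, and −0.06 without EV RV 1), and the 5 below were *Hspa1a*, *Hspa1b*, *Hspa1l*, *Hspa2* and *Hspa12b*. Close to the count threshold, *Hspa12b* held 11.08 to 25.01 expected counts, *Dnajb3* 11.96 to 18 and *Dnajc28* 11 to 22. The member just outside was *Hspa12a*, with 15 and 9.95 in EV RV and 7 in each Tox RV library. The other 7 genes below the threshold were *Hspb2*, *Hspb3*, *Hspb8*, *Dnajb8*, *Dnajc22*, *Dnajc5b* and *Dnajc5g*, and no fold change is given for them.

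**Figure D5:**
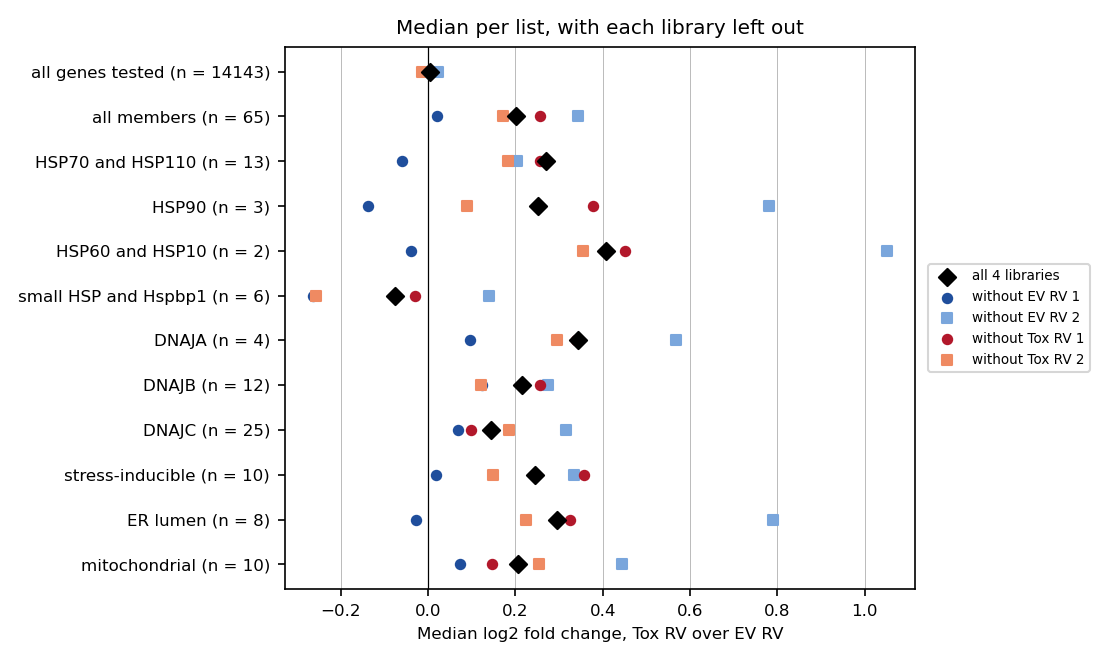
Median log2 fold change of Tox RV over EV RV per group of members, with all 4 libraries (black diamonds) and with each library left out (coloured points), beside all genes tested. Without EV RV 1 the medians of the HSP70, HSP90, HSP60, small HSP and ER lumen groups lie below 0, and without EV RV 2 those of HSP90, HSP60 and ER lumen lie between 0.78 and 1.05, while the median of all genes stays near 0.

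The partners of these chaperones that carry other symbols were tallied in the same fit. Of 15 HSP90 co-chaperones 14 had a log2 fold change above 0 (median 0.22), and of 13 HSP70 co-chaperones 11 did (median 0.21). Without EV RV 1 these medians were 0.12 and 0.05, and without EV RV 2 they were 0.54 and 0.42. By edgeR's quasi-likelihood test none had an adjusted p below 0.05, as was so for all genes tested (0%). At an unadjusted p below 0.05, 1 of the 15 HSP90 co-chaperones passed, *Chordc1*, and 0 of the 13 HSP70 co-chaperones, against 3.62% of all genes. *Chordc1*, an HSP90-binding co-chaperone, was at 56.0 and 74.9 CPM in EV RV and at 94.9 and 105 in Tox RV. Its groups did not overlap, with a log2 fold change of 0.61 (SE 0.20, unadjusted p = 0.026, adjusted p = 0.897 in the same test) and 0.41 without EV RV 1. *Ptges3* (p23), the most abundant HSP90 co-chaperone of the list, was at 183 and 290 CPM in EV RV and at 247 and 283 in Tox RV. *Hyou1* (GRP170), an exchange factor of BiP, was at 326 and 534 CPM in EV RV and at 470 and 564 in Tox RV, low in EV RV 1 as BiP was. *Hsf1*, the stress-activated factor that drives many of these genes, was at 40.8 and 31.1 CPM in EV RV and at 36.4 in each Tox RV library. The 5 HSF genes and regulators had a median of 0.04, which was 0.20 without EV RV 1 and −0.16 without EV RV 2.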

How the data were processed

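RNA was sequenced from sorted GFP+ CD4 T cells, 2 EV RV and 2 Tox RV libraries. Per the study's methods, the authors checked reads with FastQC, aligned them to mm10 transcripts with Bowtie and quantified genes with RSEM (the labels' processing notes also list Bowtie2). The deposited files hold, per library and gene, expected counts (RSEM estimates in which reads shared by similar genes are divided) and TPM as computed by the authors. A joint table of the series was not used because the unit of its values could not be settled.

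Expected counts were rounded, genes kept with filterByExpr (minimum count 10), scaled by TMM and fitted with edgeR 4.0.16 in R 4.3.3 (quasi-likelihood test, Tox RV against EV RV, Benjamini-Hochberg over all 14143 genes). Standard errors and 95% intervals came from the same fit. Alternatives used DESeq2 1.42.0, limma 3.58.1 on log2(TPM + 1) and log2(TPM + 0.1), other scalings, no filter, a replicate block and each library left out. Scripts were tested on simulated data. Transcripts were aligned with blastn 2.17.0, and promoters came from RefSeq (GRCm38.p6); gene coordinates came from GENCODE M21 (mm10). Intervals cover only the spread among these 4 libraries. Members, groups and partner lists were chosen with earlier results of these data known. Values are given per library for the 12 members with the highest TPM, those with an unadjusted p below 0.05, the 5 members with the highest and the 5 with the lowest log2 fold change among those with a mean of 100 counts or more, and the heat shock response, ER lumen and mitochondrial lists; other members named, and *Hsf1*, were chosen after their values were seen.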

Additional observations from a re-analysis of the deposited data

How the results depend on the processing

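With 1 library of a group left out, 0 to 6 members passed an adjusted p of 0.05 (0 with all 4, 6 without EV RV 2), 0 to 33 passed an unadjusted p of 0.05 (1 with all 4, 33 without EV RV 2, 4 without EV RV 1, 0 without Tox RV 2) and the median log2 fold change of the members ran from 0.020 to 0.34. How many of all genes fell below that unadjusted cut with a library left out was not counted. The member counts at that cut therefore have no background to be judged against in those fits. Among 42 of the members named (all but *Hspb6*, *Hspb7* and *Dnajb3*), 27 kept their direction in every setting run and 15 changed it when a library was left out. Their log2 fold changes then ranged from −0.41 to 0.13 for *Hspa1b*, −0.42 to 0.15 for *Hspa2*, −0.0078 to 0.54 for *Dnajb6*, −0.041 to 0.49 for *Dnajc11*, −0.048 to 0.40 for *Dnajc19*, −0.69 to 1.00 for *Dnajc28*, −0.21 to 0.077 for *Dnajc30*, −0.18 to 0.17 for *Dnajc4*, −0.14 to 0.78 for *Hsp90aa1*, −0.33 to 0.78 for *Hsp90b1*, −0.069 to 0.88 for *Hspa13*, −0.11 to 0.80 for *Hspa5*, −0.058 to 0.72 for *Hspa9*, −1.14 to 0.66 for *Hspb1* and −0.15 to 1.04 for *Hspd1*. Members outside these 42 were not tallied, and some changed direction too, such as *Hspb6* (−0.35 to 0.67), while *Hspb7* (−0.32 to −0.031) and *Dnajb3* (0.057 to 0.41) did not. The cause was not tested.

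Scaling to library totals alone moved the median of all genes to 0.12 and that of the members to 0.31, 0.19 above all genes, with 52 of 65 members above 0. It turned *Hspa1b* to 0.017, *Hspa2* to 0.018, *Dnajc28* to 0.13, *Dnajc30* to 0.060 and *Dnajc4* to 0.12. Without a filter on low counts *Dnajc4* was at 0.0022. On the log2(TPM + pseudocount) scale, limma gave 3 members an unadjusted p below 0.05 with a pseudocount of 1 and 3 with 0.1, and *Hspb1* was at −0.15 and −0.27. The share of all genes below that unadjusted cut with limma was not counted. In each of these settings 0 members passed an adjusted p of 0.05. Over all genes, 0 passed with all 4 libraries, 22 with DESeq2, 22 without the filter and 1 to 600 with a library left out.

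The labels number the libraries 1 and 2 in each group without tying a number to a mouse. The differences between replicates 2 and 1 of the EV RV and Tox RV groups correlated at 0.30 over all genes and at 0.15 over the members, with 2 pairs only. With the replicate number as a block, 4 members had an unadjusted p below 0.05 (*Hspa1a*, *Hspb9*, *Dnajc8* and *Hspe1*), 0 passed the adjusted threshold (smallest 0.182, against 16 genes in all), *Dnajc28* was at 0.048 and *Hspb1* at −0.15. The share of all genes below the unadjusted cut with that block was not counted. Members with few counts, such as *Dnajc28* and *Hspa12b*, had the widest intervals.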

Other observations

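Other chaperone systems outside the chosen symbols had values close to those above. TRiC is the cytosolic chamber that folds actin and tubulin. Its 9 subunit genes had a median log2 fold change of 0.18 for Tox RV over EV RV, with 8 above 0. The gene below 0, *Cct6b* (−0.81), was at only 0.24 to 0.51 CPM. EV RV 1 was the lowest library for 8 of the 9, and without it the median was −0.03, with 3 above 0 (0.44 without EV RV 2). Its subunit with the highest mean TPM, *Cct5*, was at 380 and 485 CPM in EV RV and at 478 and 476 in Tox RV. The 6 prefoldin subunits, which hand clients to TRiC, had a median of 0.20, with 5 above 0. Without EV RV 1 the prefoldin median was −0.05, with 1 of 6 above 0, and without EV RV 2 it was 0.56. By edgeR's quasi-likelihood test 0 of these genes had an adjusted or an unadjusted p below 0.05, against 0% and 3.62% of all genes tested.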
